A study of Mus musculus with 10 samples.

Results

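The 10 core circadian clock genes Arntl, Clock, Npas2, Per1, Per2, Per3, Cry1, Nr1d1, Nr1d2 and Ciart were examined in freshly isolated mouse hepatocytes, the main cell type of the liver. They are 10 of the 21939 genes in the deposited table and were found by their Ensembl identifiers, with Arntl listed as Bmal1 in the current annotation. All 10 were among the 13641 genes with a summed count of 10 or more, the minimum for testing. The samples came from 10 male mice given as 8 to 9 weeks old, with 1 library per mouse. All 10 mice, controls included, had been injected with AAV8Cre, a viral vector for the recombinase Cre, and were killed 12 days later. Whether the age is that at injection or at killing is not stated for these mice. The control group held 3 C57BL6/j mice without floxed alleles. The other groups had the same genetic background. They held 2 Nrf2 flox/flox mice (labelled Nrf2 KO), 2 p65 flox/flox mice (labelled p65 KO), and 3 mice floxed for both genes (labelled DKO). Cre was driven by the thyroxine-binding globulin promoter, which is active in hepatocytes, so that other liver cells should keep both genes. Injection and killing took place in the morning, and the hour for each mouse is not given in the sources used here.

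The molecular clock is a feedback loop of transcription. ARNTL (also called BMAL1) pairs with CLOCK or its relative NPAS2 and activates genes through E-box motifs, among them those for the PER and CRY proteins and for CIART, which in turn repress the pair. The receptors REV-ERBα and REV-ERBβ, encoded by Nr1d1 and Nr1d2, repress Arntl and Npas2 and close a further loop. In mouse liver the transcripts of Arntl, Npas2 and Clock are high around the end of the night and fall during the day. Nr1d1 peaks around the middle of the day, Ciart and the Per genes peak later in the day or in the early night, and Cry1 peaks late at night.

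To show the motifs through which the loop acts, the promoters of 4 members that were higher in p65 KO than in control are given below from 250 bases before the start of the canonical transcript, 300 bases in all, read 5′ to 3′ from GRCm39. Capitals mark the E-box CACGTG and the D-box TTATGNAA, to which DBP, TEF, HLF and NFIL3 bind.
Ciart, chr3:95789507-95789806, minus strand: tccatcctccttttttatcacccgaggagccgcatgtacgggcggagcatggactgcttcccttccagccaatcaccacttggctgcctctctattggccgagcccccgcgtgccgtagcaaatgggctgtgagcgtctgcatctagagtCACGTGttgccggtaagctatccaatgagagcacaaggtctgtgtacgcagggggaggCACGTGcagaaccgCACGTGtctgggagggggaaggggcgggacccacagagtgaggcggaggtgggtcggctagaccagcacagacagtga
Per1, chr11:68989018-68989317, plus strand: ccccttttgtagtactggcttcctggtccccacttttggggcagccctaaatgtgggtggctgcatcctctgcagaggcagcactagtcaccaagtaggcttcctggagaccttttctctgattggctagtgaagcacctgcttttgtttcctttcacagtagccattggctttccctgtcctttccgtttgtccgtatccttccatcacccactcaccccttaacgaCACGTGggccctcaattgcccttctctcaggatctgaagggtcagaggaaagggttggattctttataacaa
Per2, chr1:91386997-91387296, minus strand: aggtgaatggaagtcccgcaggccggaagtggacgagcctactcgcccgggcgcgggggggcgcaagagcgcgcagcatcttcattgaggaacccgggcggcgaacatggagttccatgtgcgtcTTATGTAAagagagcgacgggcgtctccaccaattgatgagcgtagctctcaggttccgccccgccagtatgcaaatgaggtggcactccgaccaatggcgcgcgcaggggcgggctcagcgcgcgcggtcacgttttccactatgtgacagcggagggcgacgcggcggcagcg
Per3, chr4:151129091-151129390, minus strand: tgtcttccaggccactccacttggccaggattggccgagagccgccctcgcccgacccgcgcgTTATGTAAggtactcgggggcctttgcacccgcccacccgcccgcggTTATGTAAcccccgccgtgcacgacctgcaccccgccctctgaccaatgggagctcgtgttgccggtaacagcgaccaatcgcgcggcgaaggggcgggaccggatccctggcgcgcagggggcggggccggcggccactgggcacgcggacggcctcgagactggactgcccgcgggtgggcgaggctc
Ciart held 3 E-boxes, beginning 100, 42 and 28 bases before the start, and Per1 held 1, beginning 22 bases before it. Per2 held 1 D-box and Per3 held 2. Among the other members, only Cry1 held either of these motifs, with 1 E-box. Only these exact motifs were searched, so variants of the E-box, in Per2 or elsewhere, were not counted. Both strands were searched, and of 21453 promoters of protein-coding genes, 7.89% held the E-box and 3.33% the D-box. For NF-κB, which contains p65, GGGA followed after 4 further bases by CC was searched. It occurred in 21.7% of all promoters and, among the members, in those of Clock and Nr1d2. For Nrf2, the core TGACNNNGC occurred in 12.5% of all promoters and in those of Per2 and Cry1, where the 2 matches of Cry1 overlapped. The receptor motif TAGGTCA occurred in 2.51% of promoters and in none of the 10, and GGGTCA in 13.8% and in Per1. None of these matches was tested for binding.

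The total count per library lay between 33707165 and 49897382. Values below are normalized counts, which are estimated counts set to a common library size after TMM scaling. Differences came from a single edgeR quasi-likelihood fit to the 10 libraries. To be called, a gene needed an adjusted p-value no higher than 0.05, by Benjamini-Hochberg over the 13641 genes, and a log2 fold change of 1 or more, up or down. The mice are numbered separately in the labels, and no source used here gives their litters. The total of Nfe2l2, the gene for Nrf2, was higher and not lower in the libraries labelled Nrf2 KO (log2 fold change 1.21) and DKO (1.02), and that of Rela, the gene for p65, differed by -0.07 in p65 KO. A total over the whole gene cannot show the loss of a deleted exon, and the genotypes are named as the labels give them. Hepatocyte markers such as Alb were abundant, with a summed level of 10 genes between 3524492 and 5616055 in every library. Markers of most other liver cell types had higher mean sums in p65 KO and DKO than in control, whereas bile duct markers in DKO did not. The sum of 12 Kupffer cell and macrophage genes was between 379 and 957 in control and 264 and 815 in Nrf2 KO. It was between 4470 and 6083 in p65 KO and 1661 and 2924 in DKO. All 12 genes were called higher in p65 KO and 5 in DKO, where 5.05% and 1.36% of all genes were called higher. The sum of 6 sinusoidal endothelial genes was between 550 and 1252 in control, 2709 and 3841 in p65 KO and 1294 and 2075 in DKO. That of 6 stellate cell genes was between 218 and 452 in control, 2183 and 2263 in p65 KO and 401 and 1057 in DKO. In p65 KO, all 6 endothelial and 5 of the 6 stellate cell genes were called higher, and in DKO 1 of each list. Genes of lymphocytes and neutrophils were low throughout, and their mean sums were also highest in p65 KO and DKO. The sum of 6 T and NK cell genes was at most 1.97 in control, between 14.2 and 17.3 in p65 KO and between 2.29 and 11.2 in DKO, and that of 4 neutrophil genes was between 0.983 and 3.31, 0.945 and 16.3, and 5.72 and 18.9. None of the tested genes of these lists was called. The sum of 5 bile duct genes was between 268 and 392 in control and 151 and 196 in Nrf2 KO. It was between 347 and 444 in p65 KO and 197 and 350 in DKO. Cd3e, Cd3g, Trac, Ly6g, Retnlg and Krt19 were at 3 counts or fewer in every library. The part of these cells in the clock values was not tested. In bulk RNA, fewer cells of a type and less RNA per cell cannot be told apart.

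In the libraries labelled p65 KO, 8 of the 10 members were called against control, where 6.59% of all genes were called. The 3 activators fell, whereas all 3 Per genes, Ciart and Nr1d2 rose. Over all genes, 5.05% were called higher and 1.54% lower. In DKO, 6 members were called, with Arntl and Npas2 lower and Ciart and the Per genes higher, against 2.38% of all genes (1.36% higher and 1.02% lower). In Nrf2 KO, no member was called, against 0.55% of all genes (0.11% higher and 0.44% lower). With rises and falls cancelling in part, the 10 members had a median log2 fold change of 0.69 in both p65 KO and DKO and of 0.28 in Nrf2 KO, where all genes had medians between 0.00 and 0.02. Scaling to equal totals moved the median of all genes by 0.176 in p65 KO and by -0.268 between DKO and p65 KO, and turned the balance of all calls in DKO to 46.4% higher, from 57.2%, but left the counts of 8 and 6 members against control as they were. Between DKO and p65 KO, Per2 was called as well under this scaling. The 3 comparisons share the same control libraries.

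**Figure D1:**
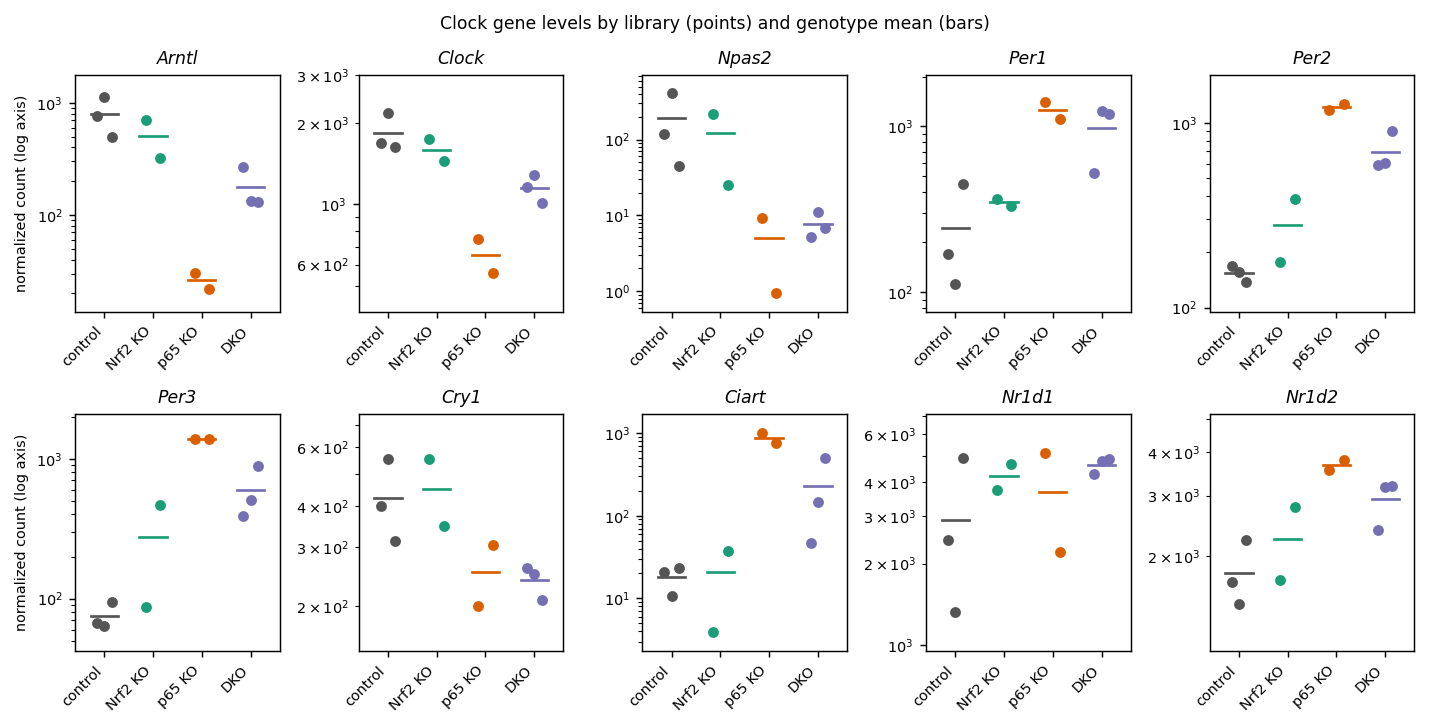
Normalized counts of each clock gene on a log axis, by genotype. Points are libraries, replicates 1 to 3 from left to right, and bars are means. For Arntl, Per2, Per3 and Ciart both p65 KO libraries lie beyond all 3 control libraries and all 3 DKO libraries lie between, whereas Nr1d1 overlaps in all genotypes.

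Among the activators, Arntl (ENSMUSG00000055116, chromosome 7 from 112806152 to 112914735) encodes the partner shared by CLOCK and NPAS2. It had 758, 1130 and 498 normalized counts in control replicates 1 to 3, 700 and 323 in Nrf2 KO, and 30.5 and 21.7 in p65 KO. DKO replicates 1 to 3 had 270, 132 and 130. Each p65 KO library lay below each DKO library and each DKO library below each control library, whereas Nrf2 KO and control overlapped. The log2 fold change was -4.93 in p65 KO (standard error 0.56, adjusted p = 0.000914 from edgeR), a 30.4-fold lower level, and -2.16 in DKO (standard error 0.389, adjusted p = 0.0121). Arntl was the 1 member called between DKO and p65 KO (log2 fold change 2.77, standard error 0.546, adjusted p = 0.0233), where 1.78% of all genes were called. This last call was lost without either p65 KO library (adjusted p up to 0.14) and without DKO replicate 1.

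Clock (ENSMUSG00000029238, chromosome 5 from 76342860 to 76452846) encodes the first of the 2 partners of ARNTL. It varied least among the activators, with 1691, 2164 and 1626 normalized counts in control, 1740 and 1446 in Nrf2 KO, and 748 and 560 in p65 KO. In DKO the values were 1160, 1285 and 1014. The p65 KO libraries were the lowest, and the DKO libraries lay between them and the controls without overlap. Clock fell in p65 KO by 1.48 on the log2 scale (adjusted p = 0.00144). In DKO its log2 fold change of -0.66 had an adjusted p of 0.0329 and stayed under the fold threshold.

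Npas2 (ENSMUSG00000026077, chromosome 1 from 39232705 to 39402323) had the widest spread of the 10 members in control, with 117, 410 and 44.8 normalized counts, an 8.97-fold range. The Nrf2 KO libraries had 221 and 25.1, so that the second lay below every control. In p65 KO it had 9.14 and 0.945, from counts of 9 and 1, and in DKO 5.26, 11.2 and 6.87, from counts of 5 to 10. All 5 libraries of these genotypes lay below all controls. The log2 fold change was -5.24 in p65 KO (standard error 1.31, adjusted p = 0.0249) and -4.60 in DKO (standard error 1.05, adjusted p = 0.0304). Both sizes rest on few counts, and between settings they ranged from -7.48 (without p65 KO replicate 1) to -3.99 (without control replicate 2) and from -5.06 to -3.36 (without control replicate 2). Unlike Arntl, Npas2 overlapped between DKO and p65 KO, with a log2 difference of 0.64 (adjusted p = 0.836).

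Among the repressors, Per1 (ENSMUSG00000020893, chromosome 11 from 68986035 to 69002300) encodes a PER protein whose gene also responds to glucocorticoids and cAMP. It had 169, 112 and 451 normalized counts in control, 363 and 332 in Nrf2 KO, and 1394 and 1115 in p65 KO. The DKO libraries had 520, 1241 and 1182. DKO replicates 2 and 3 were at the level of p65 KO, and replicate 1 was near the highest control. Per1 rose in p65 KO (log2 fold change 2.36, adjusted p = 0.0124) and in DKO (2.00, adjusted p = 0.0301), with a difference of -0.36 between them (adjusted p = 0.692). Without control replicate 3, the control with most Per1, the log2 fold changes were 3.16 and 2.81.

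Per2 (ENSMUSG00000055866, chromosome 1 from 91343700 to 91387069) encodes a PER protein that the loop needs for a stable rhythm. It was the least variable member in control, with 168, 155 and 138 normalized counts. It had 177 and 386 in Nrf2 KO, and 1178 and 1256 in p65 KO. DKO replicates 1 to 3 had 589, 607 and 897. The genotypes followed each other in the order control, Nrf2 KO, DKO and p65 KO without overlap. Per2 rose 7.92-fold in p65 KO (log2 fold change 2.99, adjusted p = 0.000636) and 4.54-fold in DKO (2.18, adjusted p = 0.00171), while in Nrf2 KO the value was 0.88 (adjusted p = 0.309).

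Per3 (ENSMUSG00000028957, chromosome 4 from 151081373 to 151129140), a further PER gene, had 67.4, 63.9 and 94.3 normalized counts in control, 87.0 and 467 in Nrf2 KO, and 1384 and 1380 in p65 KO. In DKO the values were 393, 504 and 893. The p65 KO libraries nearly coincided, and Nrf2 KO replicate 2 lay within the DKO range while replicate 1 lay within the control range. Per3 rose 18.3-fold in p65 KO (log2 fold change 4.19, adjusted p = 0.00198) and 7.89-fold in DKO (2.98, adjusted p = 0.0111). In Nrf2 KO its log2 fold change of 1.89 was the largest of the members but had an adjusted p of 0.233. Without Nrf2 KO replicate 1 it was called, with a log2 fold change of 2.63 (adjusted p = 0.0168) that rests on 1 library, and without replicate 2 the value was 0.21.

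Ciart (ENSMUSG00000038550, chromosome 3 from 95785815 to 95789991), also called Chrono, encodes a repressor of the ARNTL complex. It had 21.0, 10.8 and 23.3 normalized counts in control, from counts of 11 to 25, and 997 and 759 in p65 KO. In Nrf2 KO it had 3.95 and 37.2, the lowest library of all and one above every control, and the log2 fold change of 0.22 became 1.01 or -2.18 without replicate 1 or 2. In DKO it had 47.3, 145 and 503, a 10.4-fold range that was wider than for any other member in that genotype. Ciart rose 47.4-fold in p65 KO (log2 fold change 5.57, adjusted p = 0.00391) and 12.5-fold in DKO (3.64, adjusted p = 0.031). Without DKO replicate 3 the latter value was 2.38 (adjusted p = 0.0693).

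Cry1 (ENSMUSG00000020038, chromosome 10 from 84967560 to 85021252) encodes a cryptochrome, a partner of the PER proteins. It had 400, 552 and 314 normalized counts in control, 553 and 348 in Nrf2 KO, and 200 and 304 in p65 KO. The DKO libraries had 260, 250 and 208. All 5 libraries of p65 KO and DKO lay below all controls, by a narrow margin in p65 KO replicate 2. Neither the log2 fold change of -0.74 in p65 KO (adjusted p = 0.0983) nor that of -0.82 in DKO (adjusted p = 0.0842) passed the test.

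The REV-ERB genes gave unlike results. Nr1d2 (ENSMUSG00000021775, chromosome 14 from 4230545 to 4266624) had 1682, 1451 and 2233 normalized counts in control, 1711 and 2773 in Nrf2 KO, and 3559 and 3791 in p65 KO. DKO replicates 1 to 3 had 2389, 3180 and 3195. It rose in p65 KO just past the fold threshold (log2 fold change 1.04, adjusted p = 0.014), and the DKO value of 0.71 had an adjusted p of 0.0697. Nr1d1 (ENSMUSG00000020889, chromosome 11 from 98658752 to 98666188) had 2448, 1326 and 4919 in control, 3729 and 4670 in Nrf2 KO, and 5123 and 2199 in p65 KO. In DKO the values were 4290, 4760 and 4853. The controls spanned a 3.71-fold range and p65 KO a 2.33-fold range, and p65 KO held both the highest of the 10 libraries and 1 of the 2 lowest. Nr1d1 was not called in any comparison, and its log2 fold changes against control were 0.54 (Nrf2 KO), 0.34 (p65 KO) and 0.68 (DKO), with adjusted p-values between 0.348 and 0.809.

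**Figure D2:**
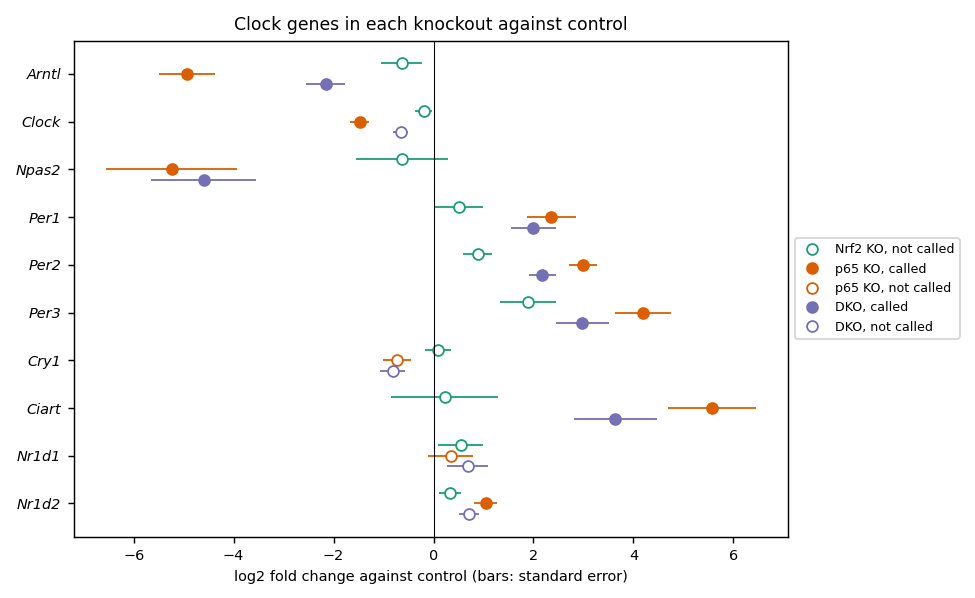
Log2 fold changes of the clock genes against control with standard errors. Filled points were called and open points were not. Arntl, Clock and Npas2 lie to the left and Ciart and the Per genes to the right in p65 KO and DKO, and no Nrf2 KO point was called.

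The calls differed in how far they rested on single libraries. In p65 KO, Arntl, Clock, Per2, Per3 and Ciart were called under every alternative tried, whereas Npas2, Per1 or Nr1d2 was lost without control replicate 1, control replicate 2, or either p65 KO library, with 5 members left without p65 KO replicate 1. In DKO, Arntl and Per2 were called under every alternative, but the count fell from 6 to 2 without control replicate 1, where Npas2, Per1, Per3 and Ciart were lost, and to 3 without control replicate 2 or DKO replicate 3, where Npas2, Per1 and Ciart were lost. Ciart was also lost without control replicate 3, Npas2 without DKO replicate 1, and Npas2 and Per1 without DKO replicate 2. A fit to DKO and control alone lost Per1 and Ciart.

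Per kilobase of the canonical transcript, which allows levels to be set side by side, the order of the members was reversed in part between control and p65 KO. In control, Nr1d1 had 1065 ± 676 normalized counts per kilobase (SD, n = 3), Nr1d2 316 ± 70.8, Arntl 186 ± 74.5, Clock 184 ± 29.7 and Cry1 138 ± 39.5. Npas2 had 44.3 ± 45, Per1 36.5 ± 27.1, Per2 26.4 ± 2.55, Per3 12.5 ± 2.77 and Ciart 9.29 ± 3.37. Arntl and Clock differed by less than their spread, as did Npas2, Per1 and Per2. In p65 KO the mean levels per kilobase were 444 for Ciart, 230 for Per3, 209 for Per2 and 188 for Per1, against 65.9 for Clock, 6.12 for Arntl and 1.17 for Npas2. Ciart, the lowest member in control, was surpassed in p65 KO by only Nr1d1 (1346) and Nr1d2 (648).

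Mice floxed for both genes were also compared with those floxed for 1. DKO against p65 KO, which differ in the Nrf2 alleles, gave the call of Arntl described above, and 5 members had an unadjusted p-value under 0.05 (Arntl, Clock, Per2, Per3 and Ciart). Between DKO and Nrf2 KO, which differ in the p65 alleles, no member was called by edgeR, against 0.433% of all genes. An unadjusted p-value under 0.05 was found for 7. DESeq2's Wald test called Arntl, Npas2, Per2 and Ciart. The interaction sets the effect of the Nrf2 alleles in p65-floxed mice against their effect in the other mice. It was called by edgeR for no member, against 0.455% of all genes, with 4 at an unadjusted p under 0.05. DESeq2 called it for Arntl, Clock, Per2 and Per3. The edgeR values were 3.41 for Arntl (standard error 0.689, adjusted p = 0.0684), 1.02 for Clock (adjusted p = 0.117), -1.68 for Per2 (adjusted p = 0.101) and -3.10 for Per3 (adjusted p = 0.114). Without Nrf2 KO replicate 2 they were -1.01 for Per2 and -1.42 for Per3, and without Nrf2 KO replicate 1 both were called, at -2.13 and -3.84. For Nrf2 KO against control, where edgeR called 0 members, Per2 and Per3 had an unadjusted p under 0.05 and DESeq2 called 0. The shares of all genes with an unadjusted p under 0.05, or called by DESeq2, are not given here. Counts of members by these criteria therefore have no baseline. For 8 members the DKO mean was intermediate, with control on one side and p65 KO on the other. The exceptions were Cry1, lowest in DKO, and Nr1d1, highest in DKO. The share of all genes with an intermediate DKO mean is not given here, so the count of 8 has no baseline.

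Replicates of 1 genotype also differed. In Nrf2 KO, replicate 2 had 2.16-fold less Arntl and 8.51-fold less Npas2 than replicate 1, and 2.17-fold more Per2, 5.32-fold more Per3 and 7.72-fold more Ciart. Of the 9 members other than Arntl, 8 thus differed between these 2 mice in the direction of p65 KO against control, all but Per1. These libraries take no part in the means of that comparison, though the single fit uses them for the spread. From DKO replicate 1 to replicates 2 and 3, which had less Arntl, the number was 7 and 8 of 9, and these 2 counts share a library. DKO replicates 2 and 3 differed by only 1.02-fold in Arntl and give no such direction. Between the 2 p65 KO libraries it was 4 of 9, but these libraries belong to the comparison itself. The control libraries also belong to it. In replicates 2, 1 and 3 they had 410, 117 and 44.8 normalized counts of Npas2 and 1326, 2448 and 4919 of Nr1d1. Per2, with 155, 168 and 138 in the same replicates, showed no such steady order. The share of all genes that differed in these directions is not given here, so the counts out of 9 have no baseline. The pairs were ordered by Arntl, which belongs to the same feedback loop, so the 9 members are not independent of it.

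**Figure D3:**
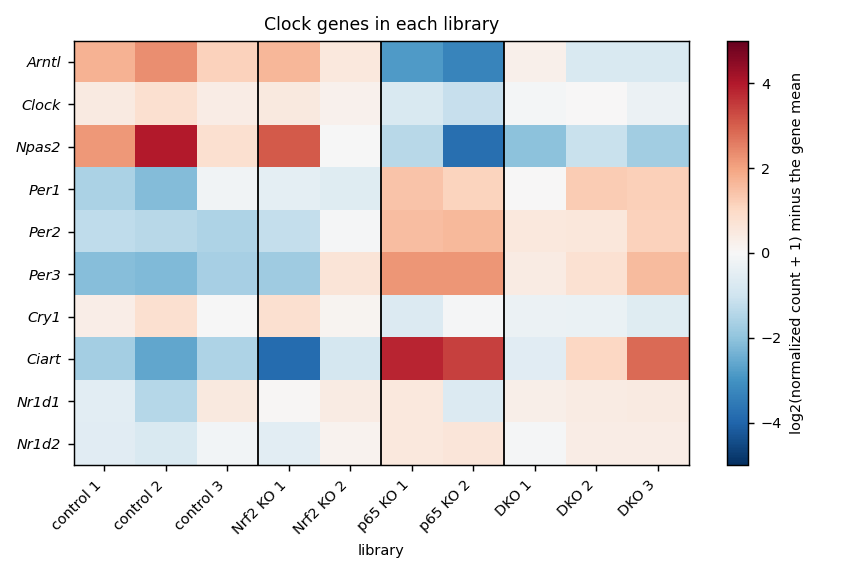
Log2(normalized count + 1) of each clock gene in each library, relative to the mean of that gene over the 10 libraries. Red is above and blue below the mean, and vertical lines separate genotypes. Control and p65 KO libraries show opposite colors for Arntl, Npas2, Per2, Per3 and Ciart.

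Ratios of counts within a library do not depend on the scaling. The log2 ratio of Per2 over Arntl was -2.17, -2.86 and -1.85 in control replicates 1 to 3, -1.98 and 0.26 in Nrf2 KO, 1.12, 2.20 and 2.78 in DKO, and 5.27 and 5.85 in p65 KO. Nrf2 KO replicate 1 was among the controls, and replicate 2 lay between the controls and DKO. The log2 ratio of Ciart over Npas2 was -2.48, -5.24 and -0.94 in control, -5.81 and 0.57 in Nrf2 KO, 3.17, 3.69 and 6.20 in DKO, and 6.77 and 9.65 in p65 KO. Here too the p65 KO libraries were the highest and Nrf2 KO replicate 2 lay between the controls and DKO.

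**Figure D4:**
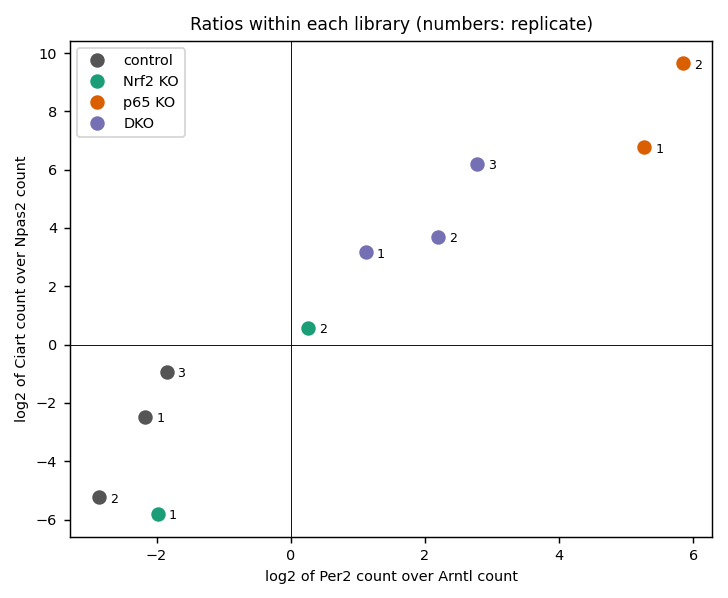
Log2 ratio of Per2 over Arntl counts (horizontal) and of Ciart over Npas2 counts (vertical) in each library, with replicate numbers beside the points. The control libraries and Nrf2 KO replicate 1 are at the lower left, Nrf2 KO replicate 2 and the DKO libraries follow, and the p65 KO libraries are at the upper right.

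Set beside the known daily order, all 8 members called in p65 KO differed from control in the direction of a later stage of the day, with the activators lower and Nr1d2, Ciart and the Per genes higher. Cry1 was lower as well, without passing the test. Nr1d1, which peaks earlier than the Per genes, was high in control replicate 3, Nrf2 KO, DKO and p65 KO replicate 1 and lower in p65 KO replicate 2, the library with the least Arntl. Between DKO and p65 KO, the log2 difference was 2.77 for Arntl (standard error 0.546) and 0.64 for Npas2 (standard error 1.52), and whether these genes differed from each other was not tested. Without p65 KO replicate 1 the values were 3.03 and 2.88, and without p65 KO replicate 2 they were 2.54 and -0.24. The p65 KO library that remained had an Npas2 count of 1 in the first case and of 9 in the second. All samples come from 1 part of the day, and no source used here gives the hour. A shift of the whole rhythm, a different hour of collection and a change in level or amplitude cannot be told apart.

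Other genes of the clock were examined as a list of 20, of which 19 were tested, since Rorb was at 0 in every library. In p65 KO edgeR called 7 higher and 1 lower, where 5.05% of all genes were called higher and 1.54% lower. In DKO it called 2 higher, against 1.36% of all genes. In Nrf2 KO edgeR called 0 of 19, against 0.55% of all genes. Cry2 and Dbp were there at an unadjusted p under 0.05, and DESeq2 called 0. In DKO, DESeq2 called 4, which were Dbp, Tef, Timeless and Usp2, and in p65 KO it called 8. Shares of all genes by DESeq2 or by the unadjusted p are not given here.

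Of the 9 tested genes for transcriptional regulators, 7 were called in p65 KO, against 6.59% of all genes. The median over the 9 log2 fold changes was 1.24, against 0.00 over all genes. Cry2, the second cryptochrome, rose by a log2 fold change of 1.24 (adjusted p = 0.00211), unlike Cry1. Bhlhe40 and Bhlhe41, which encode repressors that compete for E-boxes, rose by 1.65 and 4.41. The D-box activators Dbp, Tef and Hlf rose by 4.35, 2.5 and 1.20, while Nfil3, which encodes the repressor at the same motif, fell by 1.88. Dbp had 45.3, 54.1 and 426 normalized counts in control and 87.0 and 1719 in Nrf2 KO, so that replicates of both genotypes were far apart, and 3627 and 3589 in p65 KO. In DKO edgeR called Tef alone of these (log2 fold change 1.62, adjusted p = 0.0408). Rora, whose protein activates Arntl, was not called, with a log2 fold change in p65 KO of 0.04 (adjusted p = 0.925).

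Of the 10 genes for kinases, ubiquitin ligase parts and other proteins linked to the clock, edgeR called only Usp2, which encodes a deubiquitinase. It was called in p65 KO and DKO, where 6.59% and 2.38% of all genes were called. The median of the 10 log2 fold changes was 0.15 in p65 KO and 0.12 in DKO. Usp2 had 28.7, 37.4 and 98.1 normalized counts in control, 23.7 and 77.6 in Nrf2 KO, and 2312 and 2955 in p65 KO. The DKO libraries had 89.4, 374 and 824. Its log2 fold change was 5.57 in p65 KO (adjusted p = 0.00234) and 2.94 in DKO (adjusted p = 0.0392), and DKO replicate 1 overlapped with control. The casein kinase genes Csnk1d and Csnk1e and the ubiquitin ligase gene Btrc, whose products act on the stability of PER proteins, were not called, with log2 fold changes between -0.15 and 0.30 in p65 KO.

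**Figure D5:**
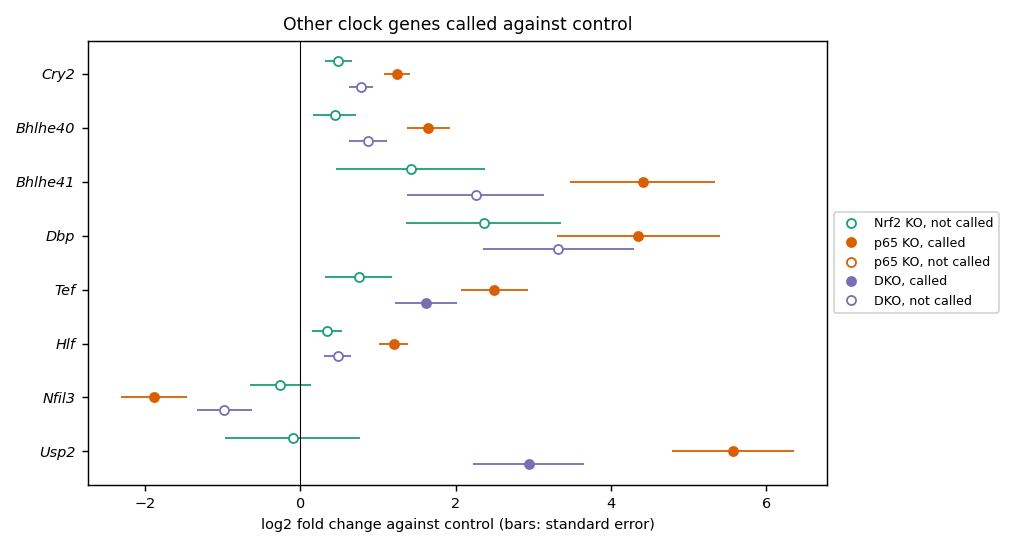
Log2 fold changes against control, with standard errors, of the 8 other clock genes that were called in at least 1 genotype. Filled points were called and open points were not. In p65 KO the points of Usp2, Bhlhe41, Dbp and Tef lie farthest to the right and that of Nfil3 farthest to the left, and in DKO the points of Tef and Usp2 are filled.

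Genes with the most similar profiles were sought for Arntl, Npas2 and Per2 among 10175 other genes whose mean normalized count reached 50, by the root mean square difference of log2(normalized count + 1) over the 10 libraries after centering each gene. For Arntl they were Elovl3, which encodes a fatty acid elongase (0.589), Dhrs9 (0.634) and Asap2 (0.637), where the median gene had 1.81. Elovl3 had mean normalized counts of 16984, 11412, 1518 and 5351 in control, Nrf2 KO, p65 KO and DKO, the same order as Arntl. For Per2 they were Nrg4, a growth factor gene (0.345), Tef (0.459) and the cyclin gene Ccne1 (0.487), with a median of 1.23. Nrg4 had means of 116, 109, 678 and 377 in the same order of genotypes. For Npas2 they included Pdk4 (1.22) and Loxl4 (1.29), with a median of 2.34, so that its profile had less close matches. Arntl was its nearest member, at 1.19.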

How the data were processed

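RNA from hepatocytes of 10 mice of 4 genotypes was sequenced by the authors after poly-A enrichment. The authors quantified transcripts of GENCODE M33 (GRCm39) with Salmon 1.10.3. The deposited values are estimated counts, in whole numbers, for each gene and mouse. The file calls itself normalized, yet library totals differ in it, so it was taken as unnormalized. The summing of transcripts to genes is not described in the sources used here. Every column matched 1 mouse by name.

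The quasi-likelihood test of edgeR 4.0.16 (R 4.3.3) was used with TMM scaling, a minimum summed count of 10 and all genotypes in a single model, and the procedure was tested on simulated data. Alternatives were DESeq2 1.42.0, other scalings and filters, a replicate block, fits to the compared genotypes alone, no fold threshold, and leaving out each library. Replicates differed by more than sampling noise (chi-square per degree of freedom between 46.9 and 215). Same-numbered libraries of different genotypes were not treated as paired, and correlations of their deviations from genotype means lay between -0.233 and 0.116. In a genotype with 2 libraries these deviations mirror each other, so a shared day or batch cannot be judged from them. Gene positions came from GENCODE M39, which held 21926 of the identifiers, and promoters from GRCm39. The members and lists were chosen with earlier results of these data known. Named genes were all members, the listed clock genes, the targeted genes, and the 3 closest profiles each of Arntl, Npas2 and Per2, of which some items are not reported here. Figures were drawn with matplotlib 3.10.9.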

Additional observations from a re-analysis of the deposited data

How the results depend on the processing

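Low counts limit Npas2, with between 1 and 10 in each p65 KO and DKO library, and Ciart, with 11 to 25 in control and 4 in Nrf2 KO replicate 1. The number of members called kept within 1.5 times its value under all alternatives other than leaving out a library in p65 KO (8), DKO (6) and Nrf2 KO (0). Between DKO and p65 KO it was 1, and 2 with scaling to equal totals (Arntl and Per2) and with the adjusted p alone (Arntl and Clock). Between DKO and Nrf2 KO it was 0, and 4 with DESeq2 and 1 without a filter on low counts. For the interaction it was 0, and 4 with DESeq2, 1 with scaling to equal totals, 3 without a filter and 1 with the replicate block. The cause of these differences was not tested, and the share of all genes called by DESeq2 is not given here. Leaving out 1 library at a time gave between 0 and 1 in Nrf2 KO, 5 and 8 in p65 KO, 2 and 6 in DKO, 0 and 2 between DKO and p65 KO, 0 and 1 between DKO and Nrf2 KO, and 0 and 2 for the interaction. Where this left a genotype with 1 library, that library was assumed to vary like the others. With the replicate block, 8 members were called in p65 KO and 5 in DKO, where Npas2 was lost, and only Arntl in the interaction. No called member changed direction under any alternative.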
